A study of Mus musculus with 67 samples.

Results

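The 10 genes described here are 8 Toll-like receptors (Tlr1, Tlr2, Tlr3, Tlr4, Tlr6, Tlr7, Tlr9 and Tlr13), the co-receptor Cd14 and the adaptor Myd88. They were taken by symbol from 3 tables of exon read counts, of which that on LPS lists 24421 genes and the other 2 list 24411 genes each. The tables hold 67 libraries from brains of C57BL/6J mice in which the ribosomal protein Rpl22 carries an HA tag after Cre recombination (RiboTag), so that an anti-HA antibody pulls down ribosomes, and the mRNA on them, from the cells that express Cre. Cre was driven by Cx3cr1, a gene of microglia that other brain macrophages also express.

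In the LPS experiment (28 libraries) all mice were CX3CR1CreER/WT RLP22HA/HA and had received tamoxifen, which switches CreER on, as 4 gavage doses of 5 mg between 4 and 6 weeks of age. They were given PBS (3 libraries for each preparation) or LPS, the endotoxin of Gram-negative bacteria, at 2.5 mg/kg with sampling 3 h later (4 libraries for each preparation). The 4 preparations were the anti-HA pull-down from whole brain tissue, a pull-down with the isotype control antibody IgG1, cells sorted as GR1 negative, CD45 intermediate and CD11b positive, and an anti-HA pull-down made from such sorted cells. Whether these cells had been digested with enzymes is not given in the sources used here. In the digest experiment (15 libraries, same genotype and tamoxifen, no LPS) 3 pull-downs and 4 IgG1 controls stood beside 4 libraries of cells sorted after enzyme digestion and 4 of cells sorted without it. In the driver experiment (24 libraries, no LPS) the input (total RNA before the pull-down), the IgG1 control and the pull-down were sequenced from CX3CR1CreER/WT RLP22HA/HA mice with tamoxifen (3 of each), the same genotype without tamoxifen (2 of each) and CX3CR1Cre/WT RLP22HA/HA mice, whose Cre needs no tamoxifen (3 of each). Per the series design, replicates are single mice, and sorting and pull-down were made from the same animal, so libraries of different preparations are not independent mice. Tagging by Cre marks every cell that had Cx3cr1 activity at recombination, and in the CX3CR1Cre line this includes activity at any earlier age.

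Toll-like receptors recognise microbial molecules. Tlr4, with Cd14 and the small protein Ly96, senses LPS at the cell surface, whereas Tlr2 pairs with Tlr1 or Tlr6 to sense bacterial lipopeptides. Tlr3 (double-stranded RNA), Tlr7 (single-stranded RNA), Tlr9 (CpG DNA) and Tlr13 (bacterial ribosomal RNA) act in endosomes. Myd88 carries the signal of all of these receptors except Tlr3 to kinases and then to the transcription factors NF-kB and interferon regulatory factors. In the brain, microglia are the cells best known for expressing this set.

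Promoter sequences of 3 members are shown because Tlr2 and Myd88 were called higher with LPS in the pull-down and in both preparations of sorted cells while Tlr13 did not pass the test in any of them. They are the 250 bases before the RefSeq start site in the GRCm38.p6 assembly, read 5′ to 3′ on the gene's strand. Capitals mark a kB motif (the consensus of NF-kB sites) in Tlr2 and an interferon-response type motif (GAAA, then any 2 bases, then GAAA) in Myd88. Tlr2 lies at chr3:83841609-83841858 on the minus strand, Myd88 at chr9:119340019-119340268 on the minus strand and Tlr13 at chrX:106143025-106143274 on the plus strand.
Tlr2: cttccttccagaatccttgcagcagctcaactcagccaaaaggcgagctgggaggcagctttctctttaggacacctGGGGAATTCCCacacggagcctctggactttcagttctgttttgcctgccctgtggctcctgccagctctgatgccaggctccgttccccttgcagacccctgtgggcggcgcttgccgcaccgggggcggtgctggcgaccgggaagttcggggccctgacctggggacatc
Myd88: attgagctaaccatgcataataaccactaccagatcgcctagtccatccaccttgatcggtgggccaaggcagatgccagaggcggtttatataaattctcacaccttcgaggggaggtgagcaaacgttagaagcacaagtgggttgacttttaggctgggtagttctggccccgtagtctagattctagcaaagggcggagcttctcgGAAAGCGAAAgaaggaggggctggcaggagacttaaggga
Tlr13: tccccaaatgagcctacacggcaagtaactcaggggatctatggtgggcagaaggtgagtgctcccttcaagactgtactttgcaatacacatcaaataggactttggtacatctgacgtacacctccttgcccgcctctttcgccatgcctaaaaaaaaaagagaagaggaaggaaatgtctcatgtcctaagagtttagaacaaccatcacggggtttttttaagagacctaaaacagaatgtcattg
The capitals span bases 173 to 163 upstream of the start in Tlr2, where overlapping matches on both strands merge, and bases 40 to 31 in Myd88. Windows were used for 7 members (not Tlr4, Tlr7 or Cd14), 9 windows in all since Tlr1 and Tlr6 have 2 each. A kB motif on either strand was found in 2 of these genes, Tlr2 and Tlr3, and the GAAA pair motif in 2, Myd88 and Tlr6. Among all 32851 windows of this length, 7.25% hold the kB motif and 2.98% the GAAA pair motif. Of the other members with windows, Tlr1 was called higher with LPS in all 3 of these preparations and held neither motif. Tlr6 was called higher too, with the GAAA pair motif in 1 of its 2 windows. Tlr3 holds a kB motif and was called higher in none of them. Whether the motifs bear on the LPS changes was not tested. The matches are descriptions of letters, and the motifs were chosen after the sequences had been seen.

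Levels are given as CPM, the reads of a gene per unit of library size after TMM scaling of those sizes, and a gene is compared across groups, never with another gene, because no gene lengths were used. Tests are edgeR's quasi-likelihood test with Benjamini-Hochberg adjustment over all genes tested, and a gene is called at an adjusted p under 0.05. Library totals ran from 166851 to 3513317 reads in the LPS experiment, from 685218 to 1843618 in the digest experiment and from 186099 to 2084562 in the driver experiment. After the filter on low counts, 9 members were tested in the LPS and digest experiments and 8 in the driver experiment, where Tlr3 had 6 reads in the 3 pull-downs of CreER mice with tamoxifen, 15 in their IgG1 controls and 1 in their inputs. Tlr9 was tested nowhere. The summed level of 10 microglia markers lay between 34100 and 38340 CPM in PBS pull-downs and between 777.8 and 1024 CPM in PBS IgG1 controls, and it was 39000 to 40140 CPM in PBS sorted cells.

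The driver experiment addresses in which cells these mRNAs reside. In CreER mice with tamoxifen all 8 tested members were higher in the pull-down than in the input of whole brain, where 28.7% of 11868 genes were higher and 64.2% were called in either direction. The median of the members was 4.86, beside -0.28 over all genes. In these bulk libraries fewer cells of a type and less RNA per cell cannot be told apart.

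Cd14 stood at 304, 324 and 172 CPM in the 3 pull-downs and at 4.91, 5.22 and 3.57 CPM in the inputs. Every pull-down was thus far above every input, and the difference was 5.87 ± 0.40 (log2, SE; adjusted p = 6.78e-17). Tlr13 stood at 107, 116 and 110 CPM against 0, 0 and 1.78 CPM, a difference of 6.96 ± 0.81 (adjusted p = 3.52e-15). Tlr2 stood at 73.2, 65.4 and 60.9 CPM against 1.40, 3.73 and 0.446 CPM, a difference of 5.26 ± 0.61 (adjusted p = 5.49e-12). Tlr13 and Tlr2 therefore behaved like Cd14, with no overlap between the groups. Myd88 was at 113, 126 and 130 CPM against 8.41, 5.22 and 8.03 CPM, a smaller difference of 4.05 ± 0.34 (adjusted p = 1.41e-13). Tlr4 was low throughout, at 12.8, 11.9 and 15.2 CPM against 0, 0.745 and 1.78 CPM (3.64 ± 0.79, adjusted p = 7.47e-06). For each of the remaining tested members the inputs together held 2 reads. The ratio of summed reads is therefore given with its 95% exact counting interval, which covers counting error only. It was 57 (15 to 483) for Tlr1 with 54 pull-down reads, 27.5 (6.88 to 239) for Tlr6 with 26 and 23.2 (5.71 to 204) for Tlr7 with 22. Each of these 3 genes passed the same test. Tlr1 and Tlr6 are neighbouring genes of closely similar sequence, and how reads that match both were counted is not given in the sources used here, so the split between them is uncertain in all that follows.

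Against the IgG1 control all 8 members were also higher in the pull-down of these mice, where 30.8% of genes were higher and 66.1% were called. Cd14 was 5.20 ± 0.38 higher and Myd88 4.84 ± 0.44 higher. Between the IgG1 control and the input, 0 of 8 members passed edgeR's test, 0 had an unadjusted p under 0.05 and 0 passed with DESeq2, although 35% of genes were called. Tlr3 was not tested in this experiment, and its 15 reads in these IgG1 controls (3.00, 6.46 and 3.01 CPM) stood above the 1 read in the inputs (0, 0.745 and 0 CPM).

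**Figure D1:**
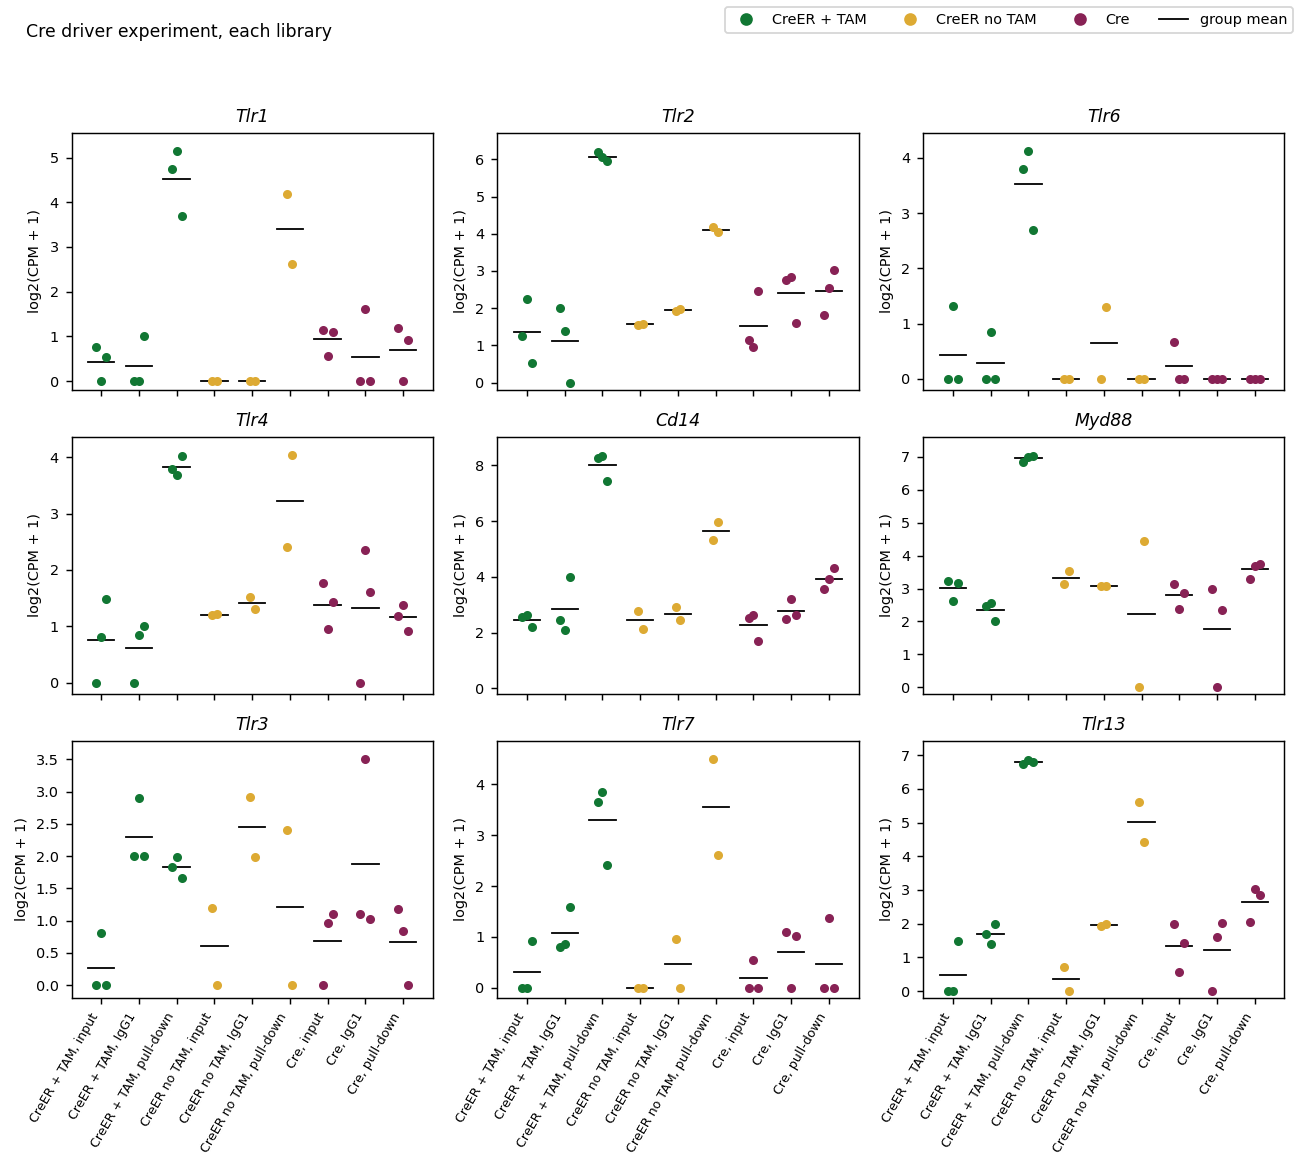
Level of 9 members in each library of the driver experiment, as log2(CPM + 1), with libraries grouped on the horizontal axis by mouse (CreER with tamoxifen, CreER without tamoxifen, Cre) and by input, IgG1 control or pull-down. Each point is a library and the black line is the group mean. Cd14, Tlr13, Tlr2 and Myd88 stand apart in the pull-down of CreER mice with tamoxifen, while in Cre mice the pull-down lies close to the input.

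In CX3CR1Cre mice the same genes were far lower in the pull-down. All 8 tested members were below the CreER pull-down with tamoxifen, where 25.6% of genes were lower and 55.7% were called. Cd14 was at 10.7, 14.3 and 18.7 CPM, a difference of -4.20 ± 0.31 (adjusted p = 3.82e-14), and Tlr13 at 3.16, 7.16 and 6.25 CPM, a difference of -4.34 ± 0.42. Tlr2 fell by 3.82 ± 0.47 and Myd88 by 3.48 ± 0.32 on the same scale. Tlr6 had 0 reads against 26, which makes it at least 14.5-fold lower with 3 reads over the group as the floor. Within the Cre mice, 2 of 8 members were higher in the pull-down than in the input, where 18.1% of genes were higher and 34.9% were called. These were Cd14, by 1.77 ± 0.44 (adjusted p = 0.00124), and Tlr13, by 1.65 ± 0.65 (adjusted p = 0.0306). The Tlr13 call was lost without any one of Cre pull-down 2 or 3 or Cre input 2 or 3. Marker sums moved with these levels: the 10 microglia markers summed to 1633 to 3885 CPM in the Cre pull-downs against 42370 to 52610 CPM in the CreER pull-downs with tamoxifen, and 7 neuron markers summed to 4820 to 6255 CPM against 1192 to 1434 CPM. Whether they account for the lower members was not tested.

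Without tamoxifen the CreER pull-down still held some of these mRNAs above the input, in 2 shallow libraries of 186099 and 219521 reads. Among 8 members, 5 were called higher, where 6.44% of genes were higher and 10.9% were called. Cd14 was at 38.8 and 61.6 CPM against 5.81 and 3.32 CPM in the inputs (3.40 ± 0.59, adjusted p = 8.53e-05). Tlr13 had 15 reads against 1, a ratio of 107 with a counting interval of 16.5 to 4520. Tlr7 had 6 reads and Tlr1 had 5 against 0 in the inputs, so they were at least 14.3-fold and 11.9-fold higher, calls that were lost without the first of the 2 pull-downs. Tlr2 was 2.99 ± 0.91 higher (adjusted p = 0.0299), a call lost without any one of the 4 libraries, and Myd88 did not pass (0.04 ± 0.80, adjusted p = 0.986). Compared with the pull-down after tamoxifen, 4 of 8 members were lower, where 18.3% of genes were lower and 34.7% were called: Myd88 by -3.69 ± 0.75, Cd14 by -2.42 ± 0.42, Tlr2 by -2.01 ± 0.66 and Tlr13 by -1.66 ± 0.49. The Tlr2 call was lost without either library from mice not given tamoxifen, and the Tlr13 call without the second of them.

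In the LPS experiment the pull-down was set against the IgG1 control again, which separates receptors carried well above background from those that are not. In PBS mice 8 of 9 members were higher and Tlr3 was lower, where 33% of genes were higher, 32% lower and 65% called. Tlr13 was the member that stood farthest above the control, at 187, 173 and 249 CPM against 1.35, 1.05 and 4.66 CPM (6.32 ± 0.52, adjusted p = 2.23e-26). Cd14, Tlr2 and Myd88 were 3.02 ± 0.27, 3.06 ± 0.43 and 3.10 ± 0.27 higher. Tlr4, at 13.2, 5.91 and 8.41 CPM against 2.70, 2.10 and 5.44 CPM, was only 1.35 ± 0.50 higher (adjusted p = 0.00996), and Tlr7 only 1.10 ± 0.37 (adjusted p = 0.00488). Both calls were lost with total counts, with DESeq2 and with DESeq2-type size factors, which moved the median of all genes from -0.02 to -0.53. The Tlr7 call was also lost without PBS pull-down 3 (0.68), and the Tlr4 call without PBS pull-down 1 or PBS IgG1 1. Tlr3 was at 2.19, 1.31 and 0.764 CPM in the pull-down and at 2.02, 5.25 and 6.99 CPM in the control, overlapping ranges with a difference of -1.60 ± 0.73 (adjusted p = 0.0266), and this call was lost without any one of PBS pull-down 2 or 3 or PBS IgG1 2 or 3. In LPS mice 7 of 9 members were higher and Tlr3 was lower, where 37.6% of genes were higher, 35.3% lower and 73% called. Tlr7 did not pass there (0.16 ± 0.27, adjusted p = 0.595), the Tlr3 call (-1.34 ± 0.49) was lost without LPS IgG1 1 and the Tlr4 call (1.10 ± 0.42) without LPS IgG1 1 or 4. With DESeq2-type size factors, total counts and DESeq2 this Tlr4 value was 0.45, 0.55 and 0.46 and did not pass. In the digest experiment 7 of 9 were higher, where 26.7% of genes were higher, 47.8% lower and 74.5% called, and Tlr3 (3 reads against 11) and Tlr7 (0.98 ± 0.54, adjusted p = 0.0864) did not pass. There Tlr3 was called lower without pull-down 1 or IgG1 2, and Tlr7 higher without pull-down 3 or IgG1 4. In the LPS and digest experiments the whole-tissue pull-down was thus not called above IgG1 for Tlr3, and for Tlr7 it was so called in PBS mice alone. In the driver experiment Tlr7 was called above IgG1, by 2.95 (adjusted p = 0.00145).

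The LPS comparison asks how an endotoxin pulse changes the ribosome-bound mRNA of these cells and whether cell sorting sees the same change. In the pull-down 5 of 9 members were higher after LPS and none was called lower, where 15.5% of 11444 genes were higher and 26.5% were called. They were the lipopeptide receptors Tlr2, Tlr1 and Tlr6, the LPS co-receptor Cd14 and the adaptor Myd88. In sorted cells 6 were higher and 1 lower, where 17% of genes were higher, 17.6% lower and 34.5% called. In the pull-down from sorted cells 6 were higher and 1 lower as well, where 12.7% were higher, 12.9% lower and 25.6% called. The median change of the members was 1.30, 1.17 and 1.27 in these 3 preparations, beside -0.03, -0.01 and -0.07 over all genes.

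**Figure D2:**
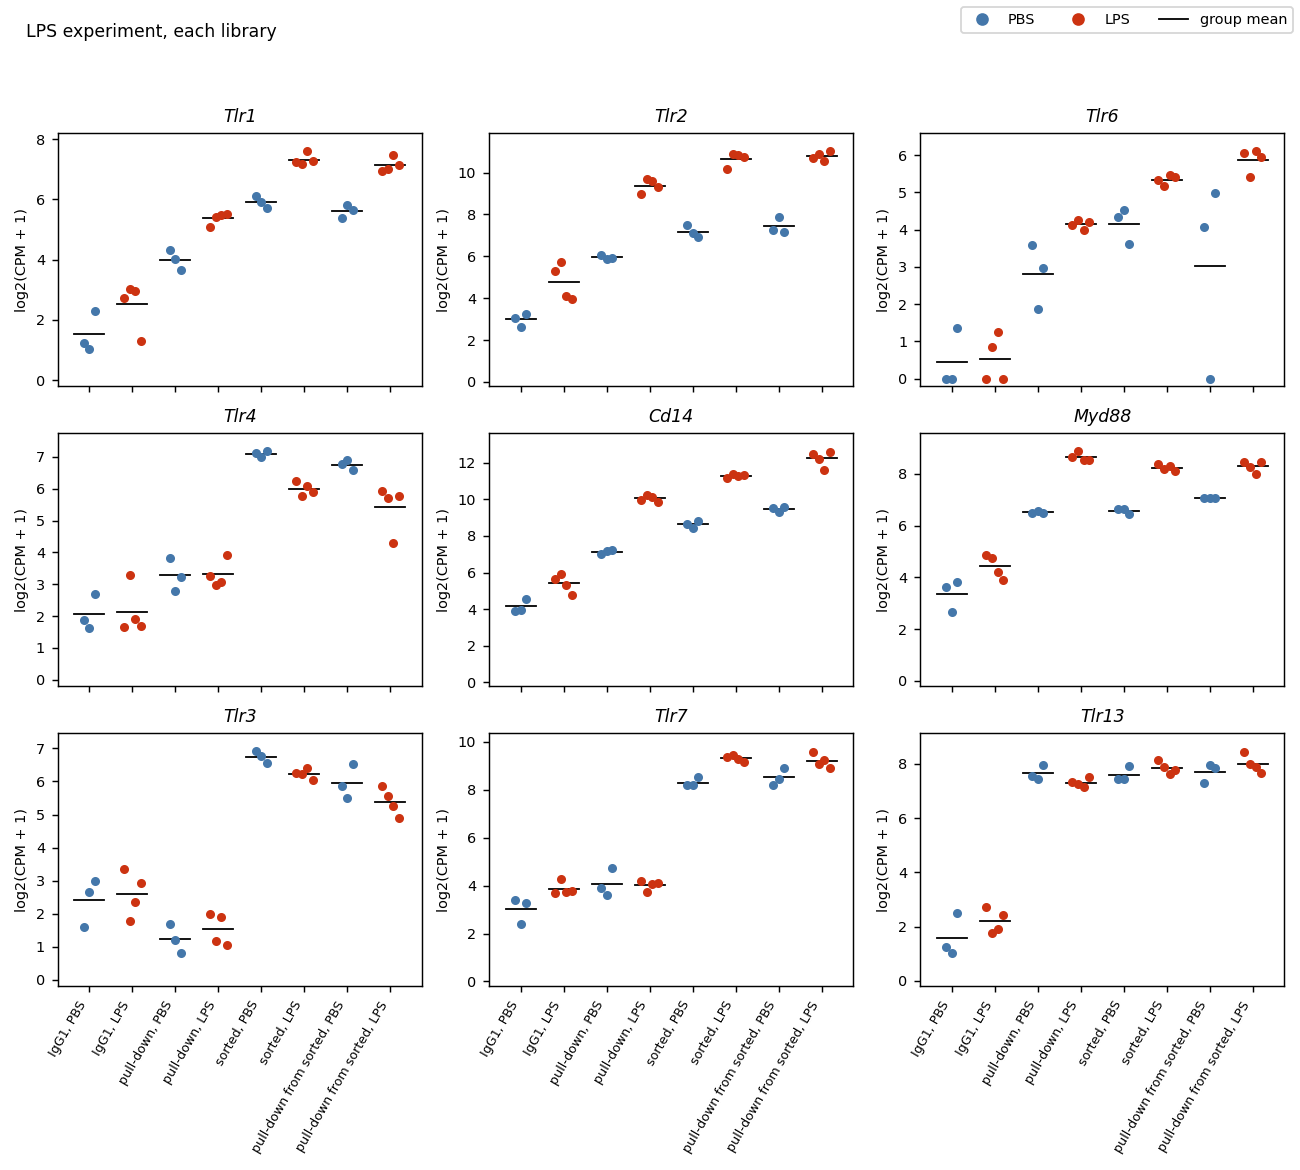
Level of 9 members in each library of the LPS experiment, as log2(CPM + 1), for the pull-down, IgG1 control, sorted cells and pull-down from sorted cells, with PBS libraries in blue and LPS libraries in red. Black lines are group means. Tlr2, Cd14, Myd88 and Tlr1 are higher in every LPS library than in every PBS library of the pull-down and of sorted cells, and Tlr4 is lower with LPS in sorted cells.

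Tlr2 showed the largest change of the members in the pull-down. Its level there was 65.7, 58.5 and 58.9 CPM with PBS and 503, 815, 764 and 630 CPM with LPS. The lowest LPS library was thus far above the highest PBS library, and the change was 3.47 ± 0.24 (log2, adjusted p = 3.82e-14). Sorted cells went from 182, 137 and 120 CPM to 1148, 1868, 1856 and 1697 CPM, again without overlap (3.47 ± 0.23, adjusted p = 2.02e-14). The difference between these 2 changes was 0.00 ± 0.33. The pull-down from sorted cells went from 150, 237 and 142 CPM to 1635, 1924, 1514 and 2061 CPM (3.39 ± 0.25).

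Its partners rose less. Tlr1 was at 19.0, 15.1 and 11.5 CPM in PBS pull-downs and at 32.6, 41.6, 44.1 and 44.3 CPM in LPS pull-downs, a change of 1.38 ± 0.25 (adjusted p = 4.14e-06). In sorted cells it went from 68.8, 59.5 and 51.9 CPM to 149, 145, 192 and 154 CPM (1.41 ± 0.20, adjusted p = 2.75e-08). Both sets were free of overlap. Tlr6 was at 11.0, 2.63 and 6.88 CPM in PBS pull-downs and at 16.5, 18.0, 14.9 and 17.3 CPM in LPS pull-downs (1.30 ± 0.39, adjusted p = 0.00524). This rise rests on few reads and on 1 library, since without PBS pull-down 2 it was 0.89 with an adjusted p of 0.104. In sorted cells Tlr6 rose by 1.17 ± 0.34 (adjusted p = 0.00409), from 19.2, 22.1 and 11.2 CPM with PBS to a highest level of 43.1 CPM with LPS and with no overlap.

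LPS raised the co-receptor Cd14, whereas the LPS receptor Tlr4 was called higher in none of the 4 preparations. Cd14 went from 129, 142 and 151 CPM to 1004, 1190, 1109 and 924 CPM in the pull-down (2.91 ± 0.18, adjusted p = 1.58e-19). In sorted cells it went from 394, 340 and 450 CPM to 2322, 2614, 2440 and 2553 CPM (2.65 ± 0.18, adjusted p = 3.08e-18), and in the pull-down from sorted cells from 723, 633 and 769 CPM to 5741, 4672, 3126 and 6192 CPM (2.80 ± 0.18). All LPS libraries of these 3 preparations were above all PBS libraries of the same preparation. Tlr4 was at 13.2, 5.91 and 8.41 CPM in PBS pull-downs and at 8.57, 6.83, 7.47 and 14.1 CPM in LPS pull-downs. These ranges overlapped, and the change was -0.05 with a 95% interval of -0.74 to 0.64. In sorted cells, where Tlr4 was far higher, it fell from 139, 127 and 143 CPM to 74.3, 53.3, 66.2 and 58.2 CPM (-1.12 ± 0.21, adjusted p = 1.24e-05). The pull-down from sorted cells showed the same fall, from 108, 118 and 94.4 CPM to 59.4, 51.5, 18.5 and 53.7 CPM (-1.06 ± 0.27, adjusted p = 0.00145). The difference between the changes in sorted cells and in the pull-down, -1.07 ± 0.41, did not pass the test (adjusted p = 0.145), so the fall of Tlr4 is not shown to differ between the preparations.

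Myd88 went from 89.1, 93.3 and 87.9 CPM to 397, 464, 373 and 365 CPM in the pull-down (2.15 ± 0.16, adjusted p = 4.16e-17). Sorted cells went from 99.0, 98.3 and 86.9 CPM to 330, 287, 315 and 277 CPM (1.67 ± 0.17, adjusted p = 4.28e-12). With PBS the levels of these 2 preparations overlapped, and with LPS every pull-down library was above every sorted library. In the pull-down from sorted cells the change was smaller, from 133, 133 and 133 CPM to 347, 309, 252 and 347 CPM (1.27 ± 0.19, adjusted p = 1.68e-07). The change there was -0.88 ± 0.25 against that in the whole-tissue pull-down (adjusted p = 0.0371), where 1.9% of genes had a lower change and 2.27% were called, and Myd88 was the 1 member of 9 called. That call was lost with total counts and in 8 of the 14 fits that left out 1 library, those without PBS pull-down 1 or 3, LPS pull-down 1 or 2, any PBS pull-down from sorted cells or LPS pull-down from sorted cells 2. Against sorted cells the difference from the pull-down was -0.48 ± 0.24 (adjusted p = 0.315).

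Among the endosomal receptors, Tlr7 was the member whose call depended on the preparation. Tlr7 was at 291, 289 and 367 CPM in PBS sorted cells and at 661, 693, 615 and 574 CPM in LPS sorted cells, without overlap (1.01 ± 0.17, adjusted p = 2.71e-06). In the pull-down from sorted cells it went from 293, 348 and 474 CPM to 770, 530, 597 and 485 CPM (0.68 ± 0.18, adjusted p = 0.00302). The lowest LPS library there was just above the highest PBS library, and the call was lost without PBS library 1 (0.46, adjusted p = 0.103). In the whole-tissue pull-down Tlr7 was at 13.9, 11.2 and 26.0 CPM with PBS and at 17.5, 12.4, 15.6 and 16.2 CPM with LPS, overlapping, with a change of -0.11 and an interval of -0.66 to 0.45. The difference between the changes in sorted cells and in the pull-down was 1.12 ± 0.33 (adjusted p = 0.0405), where 0.795% of genes had a higher change, 2.41% a lower one and 3.21% were called, and Tlr7 was the 1 member of 9 called. It was lost with no filter and in 8 of the 14 fits that left out 1 library, those without PBS pull-down 3, LPS pull-down 1, 2 or 3, PBS sorted library 1 or 2 or LPS sorted library 2 or 3. Without PBS pull-down 3 it was 0.70 with an adjusted p of 0.413. The pull-down level of Tlr7 was close to the IgG1 level in these mice, 12.1, 18.4, 12.3 and 12.6 CPM with LPS.

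Tlr3 was at 119, 108 and 92.5 CPM in PBS sorted cells and at 76.2, 73.3, 84.1 and 65.3 CPM in LPS sorted cells. All LPS libraries were lower, but the change of -0.52 ± 0.22 just missed the threshold (adjusted p = 0.0529). It passed with DESeq2-type size factors, with total counts and with these groups alone. Tlr13 did not pass in the pull-down, from 187, 173 and 249 CPM to 159, 151, 141 and 180 CPM (-0.37 ± 0.17, adjusted p = 0.11). With DESeq2-type size factors, total counts or these groups alone it was called lower there, by -0.48, -0.53 and -0.40. In sorted cells it stood at 171, 173 and 242 CPM and at 285, 233, 199 and 217 CPM (0.25 ± 0.18, adjusted p = 0.306), with overlap. Tlr9 was close to absent: sorted cells held 7, 6 and 7 reads with PBS and 2, 4, 6 and 1 with LPS, and the whole-tissue pull-down had 3 reads or fewer in each library.

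**Figure D3:**
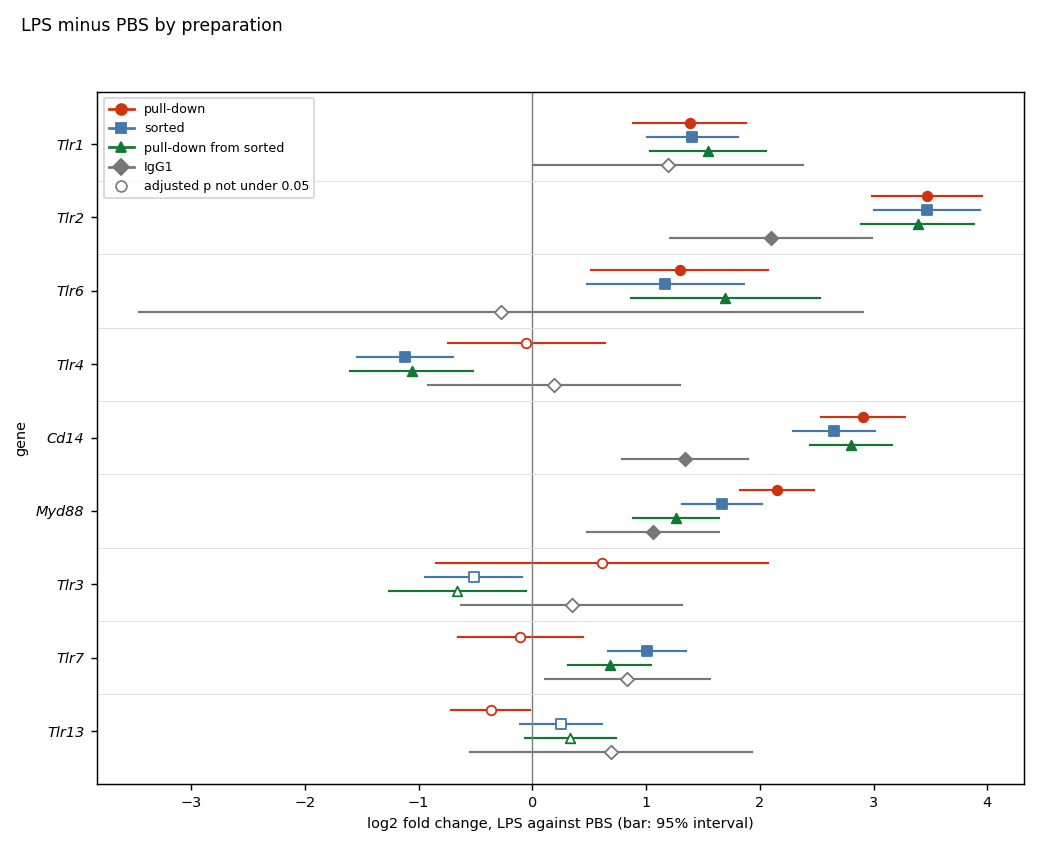
Change with LPS of each member as log2 fold change against PBS with 95% intervals, in the pull-down (red circles), sorted cells (blue squares), the pull-down from sorted cells (green triangles) and the IgG1 control (grey diamonds). Open symbols did not reach an adjusted p under 0.05. Tlr2, Cd14, Myd88, Tlr1 and Tlr6 lie above 0 in the first 3 preparations, and Tlr4 lies below 0 in both preparations from sorted cells.

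The control antibody libraries also moved with LPS. In IgG1 libraries 3 of 9 members were higher, where 1% of genes were higher, 0.149% lower and 1.15% called. Tlr2 rose by 2.10 ± 0.44 (adjusted p = 0.00138), from 7.43, 5.25 and 8.54 CPM to 38.3, 52.1, 16.4 and 14.8 CPM. Cd14 rose by 1.34 ± 0.28 (adjusted p = 0.00123), from 14.2, 14.7 and 22.5 CPM to 48.9, 60.1, 39.5 and 25.9 CPM. Myd88 rose by 1.06 ± 0.29 (adjusted p = 0.0359), a call lost with the groups alone (adjusted p = 0.211) and without PBS IgG1 1 or 2 or LPS IgG1 1 or 2. The change in the pull-down exceeded that in the control by 1.57 ± 0.33 for Cd14 (adjusted p = 0.000916) and by 1.09 ± 0.33 for Myd88 (adjusted p = 0.0323), 2 of 9 members, where 5.6% of genes exceeded it and 8.58% were called. For Tlr2 the excess of 1.37 ± 0.50 did not pass (adjusted p = 0.105), though it did without LPS IgG1 2 (1.75, adjusted p = 0.0151) and with no filter (1.36, adjusted p = 0.0235). The Myd88 excess was lost with no filter (1.09, adjusted p = 0.0583), with both other scalings and the groups alone, and in 7 fits that left out 1 library, those without PBS pull-down 1 or 3, LPS pull-down 2, PBS IgG1 1 or 3 or LPS IgG1 3 or 4.

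Markers of other cells give the surroundings of these changes. The summed level of 10 neutrophil and monocyte markers in the pull-down went from 136 to 137.3 CPM with PBS to 218.4 to 286.9 CPM with LPS. Lcn2, which other brain cells also make in inflammation, went from 1.73 to 157 CPM on average, a larger rise than that of the sum. The other markers of this list together thus did not rise, but Csf3r may make up most of them. In pull-downs of the digest experiment, without LPS, Csf3r averaged 163.6 CPM where the whole sum was 158.9 to 173.6 CPM. The sum therefore says little on the other single genes. Of these, S100a8 went from 2.49 to 0.745 CPM, and Ly6c2 and Ccr2 stayed at or below 1.42 CPM. In sorted cells the same sum went from 272.3 to 369.6 CPM to 171.1 to 269.8 CPM, mostly Csf3r, with Retnlg at 0. The sum of 7 border macrophage markers went from 714.2 to 883.5 CPM to 624.5 to 755.8 CPM in the pull-down. The sum of 7 lymphocyte markers went from 36.13 to 42.36 CPM to 4.322 to 11.2 CPM in the pull-down, from 64.17 to 77.09 CPM to 6.308 to 13.33 CPM in sorted cells and from 72.51 to 96.23 CPM to 5.367 to 12.99 CPM in the pull-down from sorted cells. That of 8 endothelial markers went from 59.61 to 73.77 CPM to 30.31 to 49.7 CPM in the pull-down. In IgG1 controls the endothelial sum was higher with PBS and also fell, from 80.34 to 110.3 CPM to 36.87 to 46.37 CPM. In IgG1 libraries the neutrophil and monocyte sum, given here without its single genes, went from 16.2 to 31.84 CPM to 82.06 to 145.9 CPM. Of the 10 microglia markers, the sum in sorted cells went from 39000 to 40140 CPM to 29270 to 30060 CPM. The part of these markers in the members' changes was not tested.

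Other genes of the pathway are given by class. Of 47 listed genes 41 were tested, and 18 were higher and 1 lower in the pull-down, against 16 higher and 5 lower in sorted cells. Over all genes 15.5% were higher and 11% lower in the pull-down, and 17% higher and 17.6% lower in sorted cells. The median change of the listed genes was 0.38 in the pull-down and 0.30 in sorted cells. Inhibitors of the pathway rose in 5 of 6 tested genes in the pull-down, from Nfkbie (1.64 ± 0.21) to Nfkbiz (2.84 ± 0.48), both members of the inhibitor of NF-kB family. The same number rose in sorted cells, with Nfkbie at 1.34 ± 0.23 and Nfkbiz at 2.98 ± 0.24. Transcription factors rose in 5 of 7 genes in the pull-down, from Irf3 (0.82 ± 0.17), an interferon regulatory factor, to the NF-kB subunit Nfkb2 (3.32 ± 0.22). In sorted cells 4 of 7 rose, from the NF-kB subunit Rela (0.81 ± 0.17) to Nfkb2 (3.01 ± 0.25). Adaptors rose in 3 of 5 genes, from Tirap (1.18 ± 0.19), which brings Myd88 to Tlr2 and Tlr4, to Pik3ap1 (1.55 ± 0.41), which links these receptors to phosphoinositide 3-kinase. Kinases and ubiquitin ligases rose in 5 of 16 genes in the pull-down, the smallest rise being Peli1 (0.53 ± 0.19), an ubiquitin ligase, and the largest Ikbke, a kinase that acts on interferon regulatory factors. Ikbke had 65 reads with LPS and 3 with PBS, a ratio of 12.9 with a counting interval of 4.23 to 64.3. In sorted cells 4 of these 16 rose and 2 fell, among them Tab1, a partner of the kinase Map3k7, by -1.40 ± 0.29.

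Listed receptors, co-receptors and chaperones other than the 10 members were called lower or not called in the pull-down and in sorted cells. Tlr12, a receptor for a protozoan protein and the 1 other Toll-like receptor with enough reads, fell in all 3 preparations of tagged or sorted cells: from 72.4 to 17.6 CPM on average in the pull-down (-2.05 ± 0.26, adjusted p = 1.60e-09) and by -2.23 ± 0.36 in sorted cells. The annotation lists Tlr11 as a synonym of Tlr12, so the 2 names may not be separated in the same way elsewhere. Co-receptors fell in sorted cells in 2 of 3 tested genes, Cd180 (-2.99 ± 0.43) and its partner Ly86 (-0.50 ± 0.19), and in the pull-down these were at -1.03 ± 1.36 and -0.04 ± 0.19 without passing. The chaperones of receptor trafficking, Unc93b1, Hsp90b1 and Cnpy3, lay between -0.23 and 0.03 in the pull-down and did not pass, whereas Cnpy3 was lower in the pull-down from sorted cells (-0.97 ± 0.18, adjusted p = 1.48e-05). Ly96, the partner of Tlr4, had too few reads to be tested, with 2 and 1 reads in all in PBS and LPS pull-downs.

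The preparation itself set the level of several members far more than LPS did. In PBS mice sorted cells held 7 of 9 members at a higher level than the whole-tissue pull-down, where 33.2% of genes were higher, 38.7% lower and 71.9% called. In LPS mice 8 were higher and 1 lower, where 33.1% were higher, 43% lower and 76.1% called. Sorted-cell libraries hold the whole RNA of cells that were dissociated and sorted, and the pull-down holds RNA on tagged ribosomes of undissociated tissue. RNA fraction, dissociation and the cells captured therefore differ together and cannot be told apart in this comparison.

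The members fall in order of this difference. Tlr3 had the largest difference in PBS mice, with 119, 108 and 92.5 CPM in sorted cells against 2.19, 1.31 and 0.764 CPM in the pull-down (6.11 ± 0.64, adjusted p = 4.77e-22). Tlr7 followed, with 291, 289 and 367 CPM against 13.9, 11.2 and 26.0 CPM (4.22 ± 0.25, adjusted p = 3.19e-24), and then Tlr4, with 139, 127 and 143 CPM against 13.2, 5.91 and 8.41 CPM (3.90 ± 0.31, adjusted p = 5.6e-20). The interval of Tlr3 did not reach those of Tlr7 and Tlr4, whereas Tlr7 and Tlr4 did not differ beyond their errors. Tlr1 (1.99 ± 0.26), Cd14 (1.49 ± 0.20), Tlr6 (1.39 ± 0.44) and Tlr2 (1.28 ± 0.27) formed a second set of neighbours within their errors, of which the Tlr6 call was lost with no filter (0.90). Myd88 (0.08 ± 0.19) and Tlr13 (-0.06 ± 0.19) did not pass, and with no filter on low counts Tlr13 was called lower, by -0.55. In LPS mice the same 3 members led, with Tlr7 at 5.34 ± 0.21, Tlr3 at 4.98 ± 0.42 and Tlr4 at 2.83 ± 0.27. Myd88 was then lower in sorted cells (-0.41 ± 0.14, adjusted p = 0.009), a call lost with total counts and without LPS sorted library 4 (-0.32, adjusted p = 0.0648). Tlr13 was higher (0.56 ± 0.17, adjusted p = 0.00198), a call lost with no filter on low counts (0.01).

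The pull-down from sorted cells holds ribosome-bound RNA of cells that were also dissociated. In its comparison with sorted cells 2 of 9 members were called in PBS mice and 2 in LPS mice, 1 higher and 1 lower in each, where 31.9% of genes were called. Cd14 was higher in the pull-down from sorted cells, by 0.85 ± 0.20 with PBS (adjusted p = 0.000668) and by 1.00 ± 0.16 with LPS (adjusted p = 2.04e-06). Tlr3 was lower, by -0.67 ± 0.25 (adjusted p = 0.0331) and by -0.81 ± 0.27 (adjusted p = 0.0135). The first call was lost without PBS sorted library 1 or 2 or PBS pull-down from sorted cells 1 or 2, with DESeq2 and with its size factors, and the second without LPS pull-down from sorted cells 4. Tlr7 differed by 0.25 and -0.08 and Tlr4 by -0.38 and -0.32, none of which passed, although Tlr4 in PBS mice did with total counts (-0.63). Myd88 in PBS mice (0.49, adjusted p = 0.0595) was called higher with DESeq2 (0.56), DESeq2-type size factors (0.56), no filter (0.64) and these groups alone (0.53). Against the whole-tissue pull-down, by contrast, 8 of 9 members were higher in PBS mice, where 24.7% of genes were higher, 29% lower and 53.7% called, and 8 of 9 in LPS mice, where 24.7% were higher and 58.1% called. Tlr3 (5.44 ± 0.65), Tlr7 (4.47 ± 0.25), Tlr4 (3.52 ± 0.32) and Cd14 (2.34 ± 0.20) led with PBS. With LPS, Tlr7 was 5.25 ± 0.21, Tlr3 4.17 ± 0.45 and Cd14 2.23 ± 0.16 higher. Of these calls, Myd88 in PBS mice (0.56 ± 0.20) was lost with no filter (0.22), Tlr13 in LPS mice (0.74 ± 0.18) with no filter (0.29), and Tlr6 in PBS mice (1.44) without PBS pull-down 2 or without PBS pull-down from sorted cells 3 (0.66, adjusted p = 0.435). Both of these preparations are anti-HA pull-downs, and what sets them apart was not tested.

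**Figure D4:**
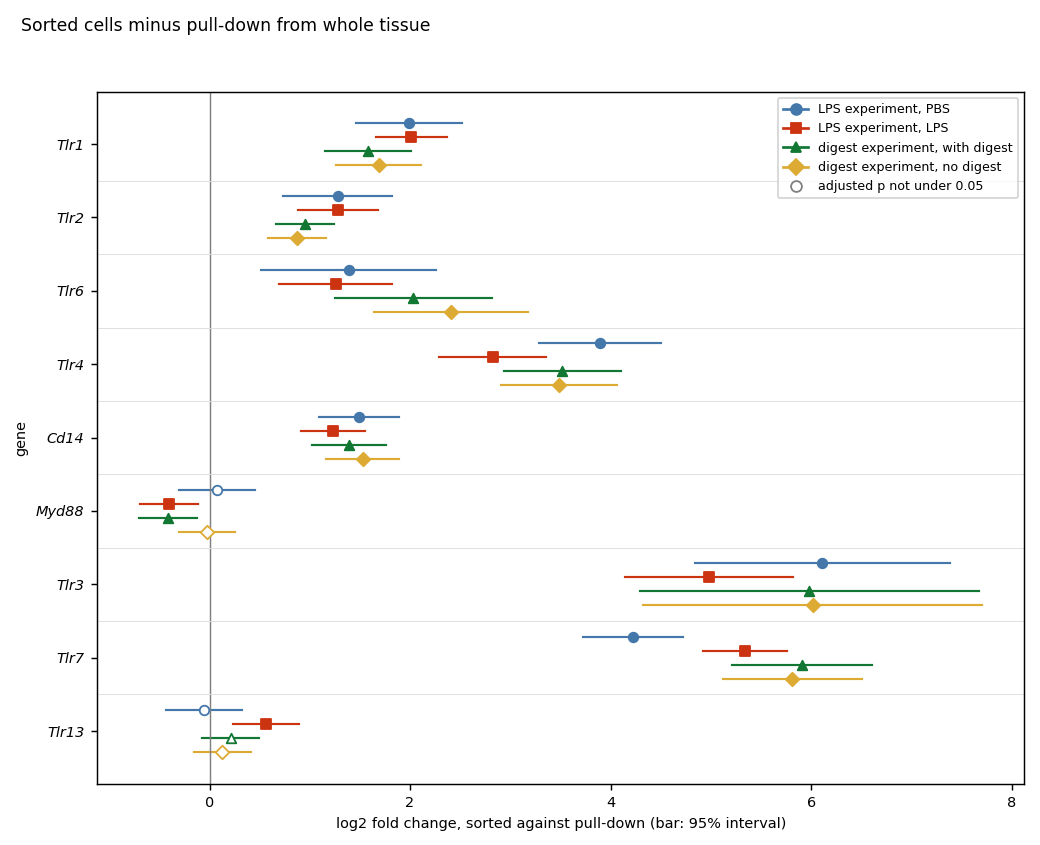
Difference between sorted cells and the whole-tissue pull-down for each member, as log2 fold change with 95% intervals, in PBS mice (blue), LPS mice (red) and the digest experiment with (green) and without (yellow) enzyme digestion. Positive values are higher in sorted cells. Tlr3, Tlr7 and Tlr4 are farthest to the positive side in all 4 settings, and Tlr13 and Myd88 lie near 0.

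The digest experiment made this comparison in other libraries, with its own pull-downs, and Tlr3, Tlr7 and Tlr4 again led. Against the pull-down, 7 members were higher and 1 lower of 9 in cells sorted after digestion, where 31.6% of genes were higher, 41.1% lower and 72.8% called. In cells sorted without digestion 7 of 9 were higher, where 31.9% were higher and 72.8% called. These 2 comparisons share the pull-down libraries. Tlr7 was at 6.83, 3.11 and 2.55 CPM in the pull-downs, at 233, 286, 242 and 226 CPM in sorted cells with digestion and at 235, 217, 235 and 236 CPM without, differences of 5.91 ± 0.34 and 5.81 ± 0.34. Tlr3 had 3 reads in the pull-downs against 226 and 246 reads in the 2 kinds of sorted cells, ratios of 73.3 (24.8 to 358) and 74.0 (25.0 to 361). Tlr4 was at 12.1, 7.46 and 4.47 CPM against 103, 89.8, 68.5 and 103 CPM and 87.0, 83.4, 87.4 and 97.1 CPM, differences of 3.52 ± 0.29 and 3.48 ± 0.29. These 3 genes were thus high in sorted cells whether or not enzymes had been used. Of the next members, Tlr6, with 20 reads in the pull-downs, differed by 2.03 ± 0.39 and 2.41 ± 0.38. Tlr1 differed by 1.58 ± 0.21 and 1.69 ± 0.21, and Cd14 by 1.39 ± 0.18 and 1.53 ± 0.18. Tlr2 averaged 79.6 CPM in the pull-downs and 154 and 146 CPM in cells sorted with and without digestion. Their order was not that with PBS in the LPS experiment, but differences between members were not tested. Tlr13, at 138, 170 and 179 CPM in the pull-downs, did not pass with (0.21 ± 0.14) or without digestion (0.13 ± 0.14), though it was called higher in both with total counts (0.38 and 0.34).

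Between the 2 kinds of sorted cells, 0 of 9 members passed edgeR's test, where 0.139% of genes were called; 1 had an unadjusted p under 0.05, and 0 passed with DESeq2. That member was Myd88, at 78.2, 94.6, 102 and 86.8 CPM with digestion and at 112, 118, 131 and 115 CPM without. The ranges did not overlap, and the difference was -0.39 ± 0.13 (adjusted p = 0.668). Myd88 was accordingly lower than the pull-down with digestion (-0.41 ± 0.14, adjusted p = 0.00867, lost with total counts) and level with it without (-0.02 ± 0.14, adjusted p = 0.892).

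Border macrophage markers and neuron markers moved with the preparation as well. The sum of 7 border macrophage markers was 714.2 to 883.5 CPM in PBS pull-downs, 13.75 to 22.43 CPM in PBS sorted cells and 13.49 to 22.21 CPM in PBS pull-downs from sorted cells, with Cd163 and Lyve1 at 0 in PBS sorted cells. The 7 neuron markers summed to 1248 to 1404 CPM in PBS pull-downs, 56.84 to 107.9 CPM in PBS sorted cells and 3401 to 4265 CPM in PBS IgG1 controls. The 10 microglia markers summed to 34100 to 38340 CPM in PBS pull-downs and 39000 to 40140 CPM in PBS sorted cells. In PBS pull-downs from sorted cells they were higher as well, at 65190 to 70860 CPM. Single microglia markers differed widely in this comparison, from P2ry12, 4.04 ± 0.19 higher in PBS sorted cells, to C1qa, which was lower (-1.02 ± 0.21). The part of these markers in the differences of the members was not tested.

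Across the 28 libraries of the LPS experiment the members followed different genes, as a description by Pearson's r of log2(CPM + 1), in which preparation, LPS and shared libraries all enter. Partners were sought among the tested genes outside the members, so likeness between members is not covered. The 3 genes most like Tlr2 were Gpr84 (r = 0.993), Ccl4 (0.986) and Srgn (0.985), and those most like Cd14 were Gpr84 (0.983), Srgn (0.982) and Sptlc2 (0.981). Tlr1 was most like Gcnt1 (0.987), Lcp2 (0.985) and Sla (0.981), and Myd88 most like Pik3r5 (0.985), Slc15a3 (0.983) and Mvp (0.982). Tlr7 was most like Cd53 (0.982), C3ar1 (0.98) and Cd164 (0.976), and Tlr4 most like Mtdh (0.961), Cysltr1 (0.96) and P2ry13 (0.959). Tlr13 was most like Txnip (0.989), Irf5 (0.985) and Lap3 (0.985), and Tlr3 most like Ddx3x (0.965), 1810026B05Rik (0.965) and Ddx5 (0.963). Tlr6 had the lowest r, with Capza1 (0.936), Brpf1 (0.932) and Sp140 (0.921). By ranks (Spearman's rho) the pairs of Tlr13 were lowest, at 0.809 with Txnip, 0.748 with Irf5 and 0.827 with Lap3. Tlr2 and Cd14 shared Gpr84 and Srgn among their 3 most alike genes, and no other pair of members shared one.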

How the data were processed

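The deposited tables hold whole-number counts of reads over exons per gene and library, with no scaling. Per the submitters' processing notes, bcl2fastq, HISAT 0.1.5, HOMER and the mm9 build were used; the annotation and the strand setting are not given in the sources used here. From the counts, genes passing edgeR's filterByExpr with a minimum count of 10 (11444 in the LPS, 11529 in the digest and 11868 in the driver experiment) were fitted with edgeR 4.0.16 (limma 3.58.1, R 4.3.3) over all groups of an experiment, with TMM scaling and the robust quasi-likelihood test, Benjamini-Hochberg adjusted over all genes tested. In all, 26 comparisons were made; those of the pull-down from sorted cells with the whole-tissue pull-down were added after seeing the data. SE values come from the fit's information matrix. A group with 0 reads was set to a floor of 3 reads over the group; ratios of low counts have exact 95% intervals, which cover counting error only. No replicate libraries were identical or within counting noise.

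Members and lists were chosen with earlier results of these data known. All members are named. Of the pathway list, the called genes of largest and smallest change of each class are named. So are the 3 genes outside the members of highest r to each tested member. Same-numbered libraries of different preparations did not deviate together (correlations of -0.0852 to 0.143), so no block was used. On data drawn with known changes, 78% of genes changed by 1 and 99% of those changed by 2 (log2) were recovered for LPS in the pull-down (9478 genes), 75% and 98% for sorted cells with digestion against the pull-down (9525) and 46% and 94% for the CreER pull-down against input (10978). In these drawn data all groups shared a base profile apart from the changed genes, which were taken only above a minimum level. The shares therefore do not cover members of low level or comparisons in which many genes differ. Alternatives were DESeq2-type size factors, total counts, no filter, DESeq2 1.42.0, the groups of a comparison alone, a replicate block and leaving out each library. Promoter letters come from RefSeq tables of GRCm38.p6, not the build of the counts.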

Additional observations from a re-analysis of the deposited data

Results flagged for a closer look

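Dixon's criterion was applied to 68 sets, each holding the values of 1 member in a group of 4 libraries. In 6 of these sets 1 library stood apart, which chance gives in about 1 of 20 independent sets of normally distributed values. A set with reads in 1 library and 0 in the others always stands apart by this criterion, as for Tlr6 and Tlr9 below. The rate does not apply to such sets. Sets of different members share libraries and are not independent. Tlr7 was at 18.4 CPM in LPS IgG1 library 2, with the other 3 at 12.1 to 12.6 CPM, and Tlr4 was at 8.82 CPM in the same library, with the others at 2.13 to 2.73 CPM. Cd14 was at 13.4 CPM in digest IgG1 library 3, with the others at 4.17 to 5.46 CPM, and Tlr6 was at 1.42 CPM there, with 0 in the others. Tlr7 was at 217 CPM in library 2 of cells sorted without digestion, with the others at 235 to 236 CPM. Tlr9 was at 7.42 CPM, from 4 reads, in library 1 of the LPS pull-down from sorted cells, with 0 in the others.

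For 3 members the change with LPS differed between preparations by a test of the difference itself. The change of Tlr7 was 1.12 higher in sorted cells than in the pull-down. That of Myd88 was -0.88 against the pull-down in the pull-down from sorted cells, and it exceeded the change in IgG1 by 1.09 in the pull-down. That of Cd14 exceeded the change in IgG1 by 1.57 in the pull-down. All of these differences share the whole-tissue pull-down libraries. The Tlr7 call and the Myd88 call for the pull-down from sorted cells were each lost in 8 of 14 fits that left out 1 library. The Myd88 call against IgG1 was lost in 7 of 14.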

How the results depend on the processing

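Of 2955 alternative values for 227 results on members, 2842 (96.2%) kept their side of the threshold, and no called value changed direction. The number of members called moved by over 1.5 times in the settings named next; smaller moves are given beside the results. For the LPS change in the pull-down less that in IgG1, 2 became 1 with DESeq2-type size factors, with total counts and with the groups alone. The LPS change in the pull-down from sorted cells less that in the pull-down gave 0 with total counts, and that in sorted cells less that in the pull-down gave 0 with no filter. Cre pull-down against input gave 1 with total counts and 1 with the groups alone, in place of 2. CreER pull-down without tamoxifen against input gave 3 with DESeq2 and 2 with the groups alone, in place of 5. CreER pull-down against IgG1 gave 5 with the groups alone, and IgG1 against input gave 1 with no filter. The cause was not tested.

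Leaving out 1 library gave 0 to 1 for both LPS differences against the pull-down, 1 to 3 for the LPS difference between the pull-down and IgG1, 1 to 2 for the pull-down from sorted cells against sorted cells in PBS and in LPS mice, 1 to 2 for Cre pull-down against input, 2 to 5 for no tamoxifen against tamoxifen, 2 to 4 for the pull-down against input without tamoxifen and 0 to 1 for IgG1 against input. With the replicate number within treatment or genotype as a block, all 175 results fitted in this way kept their call. In the LPS experiment the library titles repeat the same running number across preparations. Whether a number marks 1 mouse across preparations, there or in the other experiments, is not given in the sources used here. The reported tests treat libraries of different preparations as independent.

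Over all genes, calls for LPS in IgG1 went from 132 to 213 with no filter, 84 with the groups alone and 86 without LPS IgG1 2. The LPS difference of sorted cells went from 367 to 552 with the groups alone and to 196 to 244 without single libraries, that of the pull-down from sorted cells from 260 to 453 with no filter and to 154 or 171 without PBS library 3 of the pull-down or 1 of the pull-down from sorted cells. Digestion went from 16 to 25 (DESeq2 and no filter) or 30 (groups alone), the untreated CreER pull-down against input from 1293 to 451 to 817 and against tamoxifen from 4120 to 2517 without its library 1. The share of higher genes among those called depended on scaling: with DESeq2-type size factors it went from 58.6% to 45% for LPS in the pull-down and from 50.8% to 32.2% (PBS) and 51.6% to 31.9% (LPS) for the pull-down against IgG1. With total counts it went from 44.7% to 28.8% for the CreER pull-down against input, 51.8% to 28.1% for Cre and 47.2% to 70.3% for no tamoxifen against tamoxifen. Tlr9 and, in the driver experiment, Tlr3 were limited by depth.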

Other observations

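Tlr8, an endosomal receptor for single-stranded RNA and a neighbour of Tlr7 on the X chromosome, ran against Tlr7 in the few reads it had. It had 10 reads in the PBS pull-downs and 26 in the LPS pull-downs, 0 in PBS and in LPS sorted cells, and 2 and 0 in the pull-downs from sorted cells. These counts were too low to enter the test, and Tlr8 was singled out after its values were seen.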
